A study of Mus musculus with 2 samples.

Results

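The genes described here are 10 immediate early transcription regulators, namely the AP-1 family members Fos, Fosb, Jun, Junb and Jund, the Egr zinc finger factors Egr1, Egr2 and Egr3, the stress factor Atf3 and the nuclear protein Ier2. They were picked by symbol from the 31053 genes of the count matrices, and each of the 10 symbols named exactly 1 gene. Their transcripts were counted cell by cell in ischemic brain of Foxp3Egfp mice aged 6 to 8 weeks, a strain with a green fluorescent reporter at the locus of the regulatory T cell factor Foxp3. The mice were flushed with PBS, and cells positive for CD45, CD11b and F4/80 and negative for CD3 were collected on a FACSAria sorter and labelled as macrophages. There was 1 group with 2 replicate libraries and no uninjured or untreated group, so that different kinds of cells of the same libraries are compared. Values given as pairs are library 1 and library 2, in that order.

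Immediate early genes are switched on within minutes of a stimulus, without new protein synthesis, when kinase cascades activate factors already bound at their promoters. Fos and Jun proteins pair through leucine zippers to form the AP-1 complex, Egr proteins bind GC-rich sites through zinc fingers, and both then regulate later genes of inflammation, repair and proliferation. In brain myeloid cells these genes respond to injury and cytokines, and the preparation of a cell suspension from tissue is itself known to induce them. The labels give no temperature, enzyme or transcription inhibitor for that step, and its part in the levels below was not tested.

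The libraries held 101893367 and 62850768 UMIs (unique molecular identifiers, each counting 1 captured transcript). After filters on cells and removal of doublets, 13624 and 7409 cells with medians of 4975.5 and 5612 UMIs remained. They were clustered without these 10 genes and named from markers. Microglia-like cells (resident macrophages of the brain) made up 46.4% and 68.3% of the cells. Macrophage-like cells, named from markers of monocyte-derived macrophages, made up 34.1% and 7.52%, and monocyte-like cells 3.33% and 6.76%. The single label "macrophage" therefore covers several kinds of cells, and the libraries differ in their makeup. T or NK cell-like and fibroblast or pericyte-like cells lie outside the labelled gate. The cluster named neutrophil-like also carried microglia markers, which summed to 41266 and 31884 CPM (UMIs as counts-per-million of all UMIs of the cells) against 49671 and 62883 in microglia-like cells. In macrophage-like cells the microglia markers summed to 4940 and 6075. The T or NK cell-like class had 23898 and 13226, and what mixed cells contribute to the values of these classes was not tested. The largest macrophage-like cluster of library 1 was cluster 2 (2208 of 4652 cells), which held 41 of the 557 of library 2, where cluster 5 was the largest (370 cells). Macrophage-like cluster 8 had only 3 of the 10 markers of its class detected, and the origin of the class was not tested. Barcodes below 100 UMIs, taken as free RNA, held 4.91% and 4.40% of all UMIs, and 25 cell barcodes were shared by the libraries.

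Promoter sequences in RefSeq (GRCm38.p6) were found for 7 of the 10 genes and were searched over the 250 bases before each start site for 5 motifs on both strands. These are the CArG box bound by serum response factor, the cyclic AMP response element TGACGTCA, the AP-1 site TGANTCA, the TATA box TATAAA and the Egr site GCGGGGGCG. Over 32851 promoters of this length they occurred in 1.47%, 1.55%, 6.75%, 12.4% and 2.57%, respectively. The stretches with a match are shown because the motifs belong to factors among or upstream of these genes: an Egr site lies before Fosb and CArG boxes lie before Egr2. The promoter of Fos is shown whole, as the gene whose pattern is set apart most often below. Capitals mark the match.
Fos promoter, chr12:85473640-85473889, plus strand, TATA box 33 to 28 bases before the start: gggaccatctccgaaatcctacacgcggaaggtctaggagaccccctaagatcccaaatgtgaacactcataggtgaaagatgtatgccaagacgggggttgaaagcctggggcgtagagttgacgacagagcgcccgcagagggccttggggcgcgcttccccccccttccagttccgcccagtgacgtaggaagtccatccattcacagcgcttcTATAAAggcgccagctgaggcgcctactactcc
Fosb, chr7:19310076-19310105, minus strand, Egr site 50 to 42 bases before the start: tgacgcaagcGCGGGGGCGggtcccggagg
Egr2, chr10:67537787-67537816, plus strand, CArG box 72 to 63 bases before the start: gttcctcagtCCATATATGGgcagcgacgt
Egr2, chr10:67537484-67537513, plus strand, CArG box 72 to 63 bases before another start: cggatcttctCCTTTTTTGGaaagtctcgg
Both CArG boxes read as CArG boxes on either strand. The letters of these motifs were not present in the windows of Atf3, Jun, Jund and Junb, which says nothing about factors binding there or elsewhere. A match is a description of the letters and not of a bound site.

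Levels are given as CPM of a class. A UMI counts a captured transcript end, so that values are not divided by gene length. Fos (chr12:85473890-85477273 in the GENCODE vM21 annotation of GRCm38) encodes the founding Fos partner of AP-1. Its level was 2193 and 2209 in microglia-like cells, 1989 and 2037 in monocyte-like cells, and 1112 and 2107 in macrophage-like cells. Microglia-like and monocyte-like cells were thus close in both libraries, while the macrophage-like value of library 1 was about as low as in cycling-like cells (1275 and 1104). Dendritic cell-like cells had 1805 and 1899, neutrophil-like cells 2131 and 1676, T or NK cell-like cells 1256 and 852, and fibroblast or pericyte-like cells 775 and 790. Fosb (chr7:19302696-19310051), a Fos relative with the same partners, was highest in dendritic cell-like cells at 250 and 187, against 203 and 134 in microglia-like and 123 and 101 in macrophage-like cells. Library 1 was above library 2 for Fosb in each of the 8 classes.

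The Jun family separated the classes more. Jun (chr4:95049034-95052222), the partner that can also pair with itself, stood at 1626 and 2390 in microglia-like cells, 1089 and 925 in monocyte-like cells and 297 and 791 in macrophage-like cells. The values of these 3 classes did not overlap, although those of monocyte-like and macrophage-like cells in library 2 lay close together. Junb (chr8:84974484-84978718), a Jun relative that often restrains growth, had 2049 and 2691 in microglia-like, 1973 and 2070 in monocyte-like and 610 and 1309 in macrophage-like cells. Jund (chr8:70698949-70700616), the most widely expressed Jun relative, had 1144 and 1801, 848 and 903, and 238 and 563 in the same order. For both genes microglia-like and monocyte-like cells lay above macrophage-like cells in each library. Jun, Junb, Jund and Atf3 overlap other genes on the opposite strand, and none overlaps one on its own strand.

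The Egr genes had the widest range. Egr1 (chr18:34859823-34864984), the Egr factor most used as a marker of recent stimulation, stood at 827 and 628 in microglia-like cells, 524 and 189 in monocyte-like cells and 47.6 and 96.8 in macrophage-like cells. If free RNA took the same share of a cell's UMIs as of all UMIs, it would give 16.3 and 19.6 of these units. The macrophage-like level was above that amount in both libraries. The share of free RNA within cells was not measured. Egr2 (chr10:67535475-67542188), a factor with roles in myelination and in lymphocyte and macrophage differentiation, was scarce everywhere, at 13.3 and 13.98 in microglia-like and 4.26 and 9.22 in macrophage-like cells. The latter rest on 142 and 48 UMIs. Egr3 (chr14:70077203-70082614), a close relative of Egr2, had 28.4 and 22.3 in microglia-like cells and 0.660 and 2.11 in macrophage-like cells, from 22 and 11 UMIs. Under the same assumed share, free RNA would give 0.569 and 0.780. The macrophage-like level of Egr3 in library 1 cannot be told apart from that assumed amount. In T or NK cell-like cells Egr2 had no UMI in either library and Egr3 had none in library 2. With 3 counts as the limit that a count of 0 allows, Egr2 was at least 2.04-fold and 1.99-fold lower than in microglia-like cells and Egr3 in library 2 at least 3.16-fold lower (counting error only).

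Atf3 (chr1:191170296-191218039), a stress-induced factor that restrains inflammatory genes, had 1815 and 1670 in microglia-like cells, 1383 and 1215 in monocyte-like cells, 603 and 1081 in macrophage-like cells and only 106 and 40.9 in fibroblast or pericyte-like cells. Ier2 (chr8:84661331-84662852), a small immediate early nuclear protein, had 437 and 512, 356 and 323, and 68.3 and 172 in the first 3 classes. Its microglia-like and macrophage-like values were far apart in both libraries. Summed over the 10 genes, the level was 10336 and 12069 in microglia-like, 9954 and 10239 in neutrophil-like, 8329 and 7770 in monocyte-like, 7654 and 8075 in dendritic cell-like, 7401 and 7453 in T or NK cell-like, 4654 and 4942 in cycling-like, 3104 and 6233 in macrophage-like, and 2900 and 2910 in fibroblast or pericyte-like cells. In that order the values of monocyte-like and dendritic cell-like cells overlapped, and so did those of cycling-like and macrophage-like cells. Microglia-like and neutrophil-like cells were next to each other without overlap, and the latter class also carried microglia markers, as given above. The macrophage-like class had the widest gap between libraries of the 8.

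**Figure D1:**
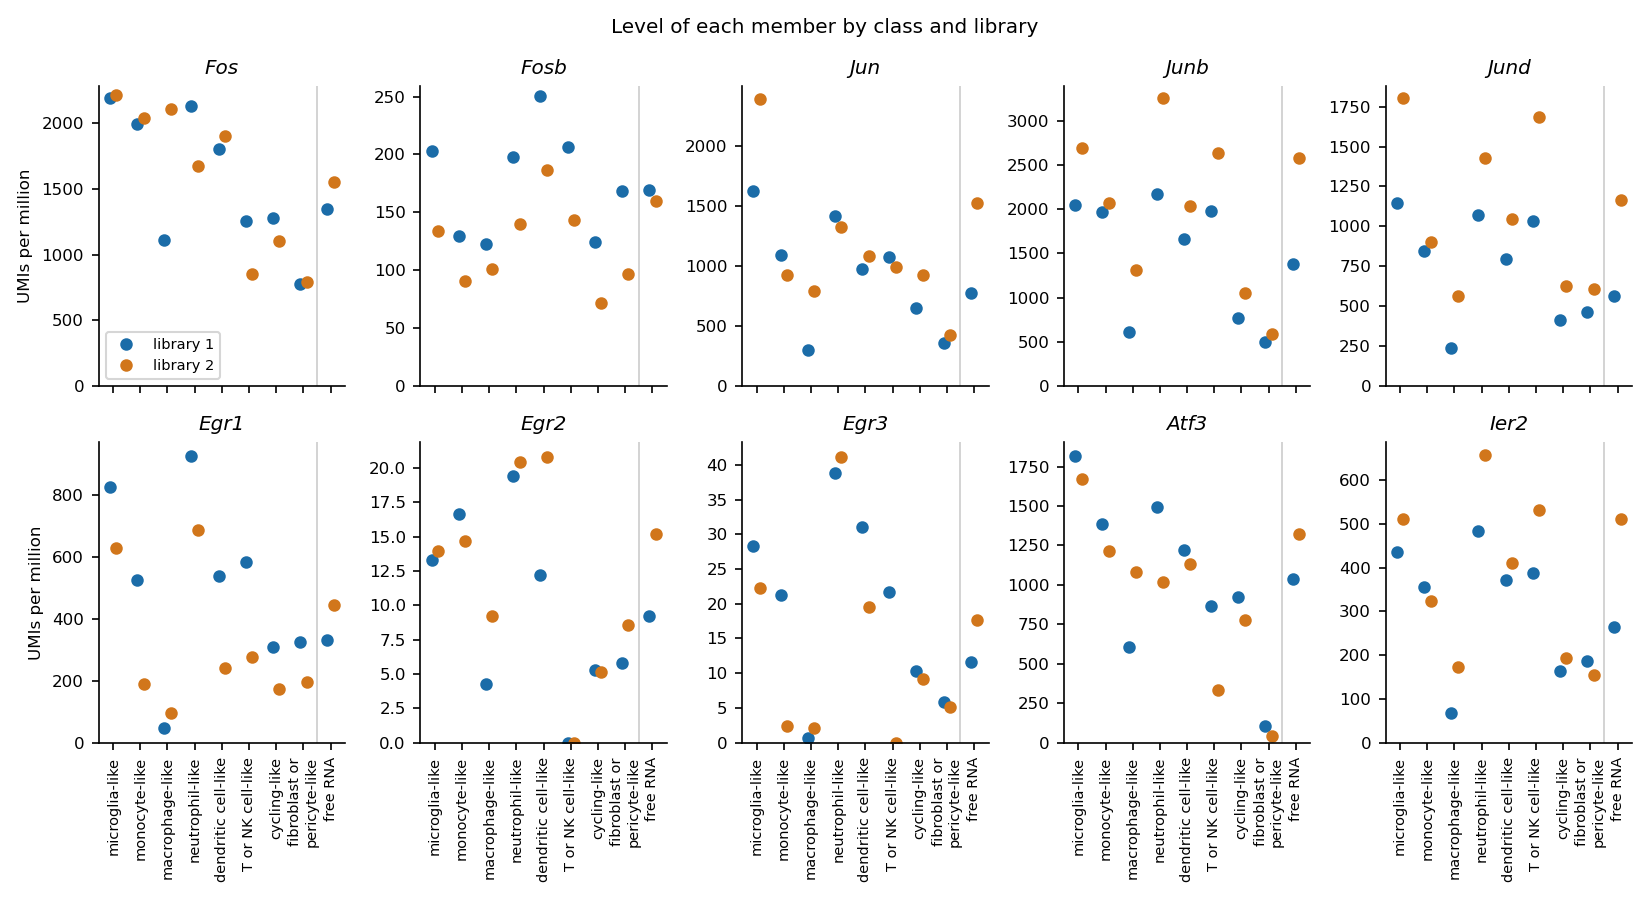
Each panel plots 1 gene as CPM (vertical axis, from 0) in the 8 classes and in free RNA, with 1 point for each library. Egr1, Egr3, Jund and Ier2 have their lowest or nearly lowest points in macrophage-like cells, whereas Fos of library 2 is as high there (2107) as in monocyte-like cells (2037).

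Macrophage-like cells had lower levels of 7 of the 10 genes than microglia-like cells. These were all 3 Jun relatives, all 3 Egr factors and Ier2, while Fos, Fosb and Atf3 did not pass the test. The test was edgeR's quasi-likelihood test on summed counts of the 8 classes with the library as a block (11019 genes, Benjamini-Hochberg adjusted p under 0.05), and at that threshold 19.7% of all genes were lower, 24% higher and 43.7% either. The p-values measure how much differences between classes vary from library to library, pooled over the 8 classes. They do not measure a spread between animals, because the labels do not say that the 2 libraries come from separate animals. Log2 differences are scaled by TMM, which takes most genes as equal. Egr3 differed most, by -4.48 (SE 0.55, adjusted p 1.07e-05), with -4.66 and -2.89 in the single libraries. Egr1 differed by -2.90 (SE 0.37, adjusted p 1.67e-05), with -3.67 and -2.33. For both Egr genes each library on its own had a difference in this direction of over 2 log2 units.

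Ier2 followed at -1.72 (SE 0.25, adjusted p 5.33e-05). Jun was at -1.60 (SE 0.26, adjusted p 0.000139) and Jund at -1.60 (SE 0.19, adjusted p 7.96e-06). The smallest differences that passed were those of Junb, at -1.02 (SE 0.18, adjusted p 0.00035), and of Egr2, at -0.84 (SE 0.23, adjusted p 0.00936). That of Egr2 came mainly from library 1, which alone gave -1.17 against -0.23 in library 2. Fos gave -0.13 (SE 0.23, adjusted p 0.705), and its libraries pointed in opposite directions, -0.54 and 0.30. Fosb gave -0.22 (adjusted p 0.312) and Atf3 -0.67 (adjusted p 0.126). The median of the 10 differences was -1.31, against 0.05 over all genes tested.

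Which Fos-family genes differ depends on the scale, on which clusters enter and on how they are weighted. Under scaling to total UMIs alone the median of all genes shifted from 0.05 to -0.29 and the share of called genes that were higher from 55.0% to 27.4%. Then 9 of the 10 genes were lower, against 32.6% of all genes, with Fosb at -0.56 (adjusted p 0.0110) and Atf3 at -0.99 (adjusted p 0.0311), and Fos at -0.45 did not pass (adjusted p 0.150). Equal weight was also given to each cluster with at least 100 cells in both libraries. The macrophage-like side was then clusters 5 and 8 alone, without clusters 2 and 14. There, in an edgeR fit of clusters, Fos was instead higher in macrophage-like cells by 0.88 (adjusted p 3.41e-06) and Fosb by 0.98 (adjusted p 2.09e-05). Egr2 gave 0.83 (adjusted p 0.267). Egr3 at -2.84, Junb at -0.13 (adjusted p 0.318) and Atf3 at 0.18 (adjusted p 0.342) did not pass there either. Jun, Jund, Egr1 and Ier2 were lower, where 27.2% of 10164 genes were higher and 23.7% lower. Without the small cluster 13, described below, Fos was higher by 0.35 (adjusted p 0.0292) and 6 genes were lower, against 28.2% higher and 30.4% lower among all genes. Jun, Jund, Egr1 and Ier2 were thus lower in macrophage-like cells under each of these 4 settings, and the direction for Fos and Fosb was not settled by them. The settings with equal weight also left out clusters 2 and 14, so that weighting and choice of cells cannot be told apart there. When cells were assigned by marker UMIs without clustering, 3 of the 10 genes passed, namely Jun, Jund and Egr1, all lower, against 8.28% of all genes. Egr3 at -3.25 (adjusted p 0.0721), Ier2 at -1.46 (adjusted p 0.113), Junb at -0.92 (adjusted p 0.130) and Egr2 at -0.66 (adjusted p 0.381) did not pass there.

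Fos was most abundant relative to Jun in macrophage-like cells. For each UMI of Jun there were 3.74 and 2.66 UMIs of Fos in macrophage-like cells, 1.83 and 2.20 in monocyte-like cells and 1.35 and 0.924 in microglia-like cells. Free RNA had 1.74 and 1.02. The 3 classes did not overlap in this ratio, a difference that was not tested. Fos made up 35.8% and 33.8% of the summed level in macrophage-like cells and 21.2% and 18.3% in microglia-like cells, whereas Egr1 made up 1.53% and 1.55% against 8.00% and 5.20%.

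Monocyte-like cells had lower levels of 3 of the 10 genes than microglia-like cells, and no gene was higher: Jun at -0.76 (adjusted p 0.0312), Jund at -0.50 (adjusted p 0.0494) and Egr1 at -0.95 (adjusted p 0.0472), where 17% of all genes were lower in the same edgeR fit. None of these passed without the library block, with a stricter filter on cells, or without the barcodes shared by the libraries. Fos at 0.08, Junb at -0.01, Atf3 at -0.21 and Ier2 at -0.27 did not pass. Egr3 was at -1.27 (adjusted p 0.0713), with -0.33 and -2.71 in the libraries, where it had 32 and 8 UMIs in monocyte-like cells.

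Against macrophage-like cells, 7 of the 10 genes were higher in monocyte-like cells, where 10.3% of all genes were higher and 13.2% lower. These were Egr3 by 3.21 (adjusted p 0.00592), Egr1 by 1.95 (adjusted p 0.00163), Ier2 by 1.45 (adjusted p 0.000956), Egr2 by 1.202 (adjusted p 0.00888), Jund by 1.10 (adjusted p 0.00089), Junb by 1.02 (adjusted p 0.00127) and Jun by 0.84 (adjusted p 0.0263). Several of them rest mostly on library 1: the single libraries gave 4.33 and 0.18 for Egr3, 3.10 and 1.01 for Egr1 and 1.51 and 0.27 for Jun. Fos at 0.21, Fosb at -0.17 and Atf3 at 0.46 did not pass. The median was 1.06, against -0.13 over all genes. These 2 comparisons share samples with the one of macrophage-like and microglia-like cells, and their values are not independent of it. Without the library block 5 genes passed, against 7.99% of all genes, and Jun and Jund did not.

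**Figure D2:**
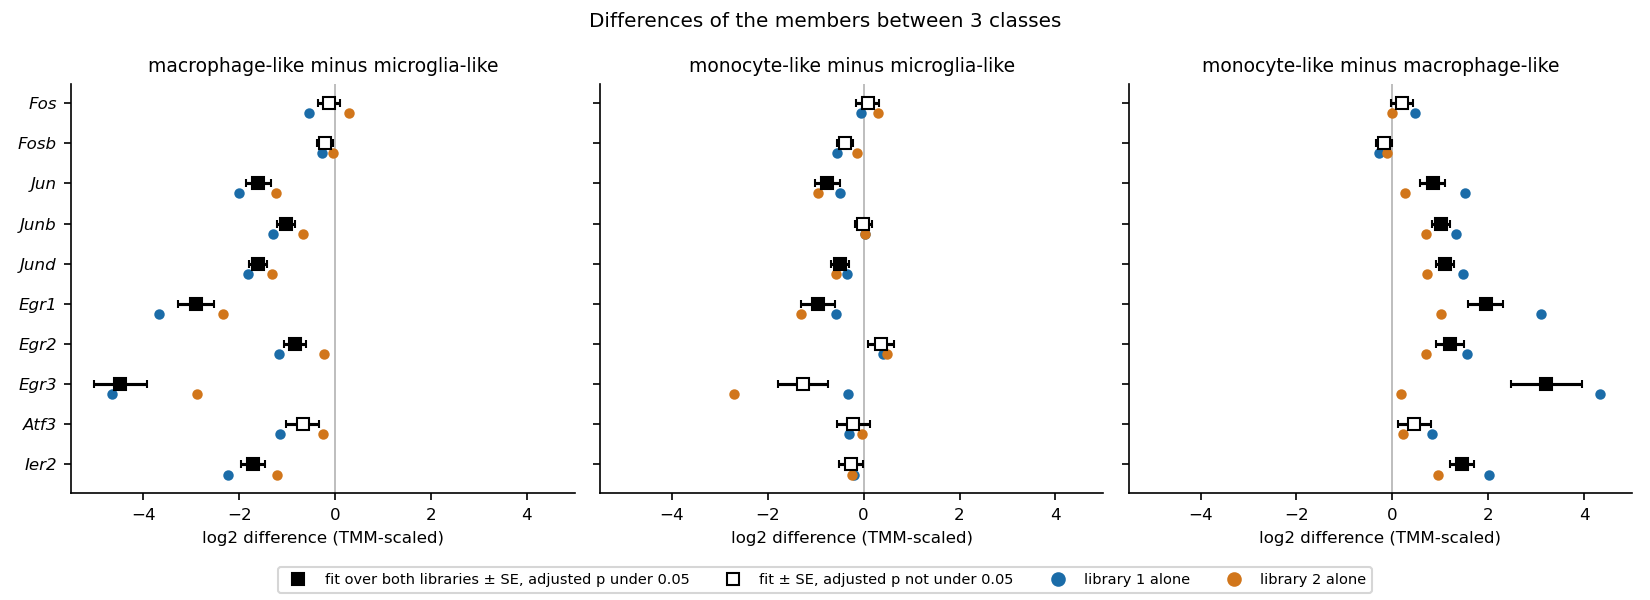
Each panel plots log2 differences (TMM-scaled, horizontal axis) of the 10 genes between a pair of classes, with squares for the fit over both libraries ± SE, filled where the adjusted p was under 0.05, and circles for each library alone. Egr3 and Egr1 lie farthest to the left in macrophage-like against microglia-like cells (-4.48 and -2.90), and Fos lies near 0 in all 3 panels.

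The other classes were set against microglia-like cells in the same edgeR fit. No gene of the 10 passed in neutrophil-like cells (4.26% of all genes did in either direction), where Egr2 alone had an unadjusted p under 0.05 and DESeq2 also called 0. That class also carried microglia markers, as given above, so its values are not those of neutrophils alone. At Leiden resolution 1.2 the class held 96 and 352 cells, and 1 gene of the 10 was higher and 2 were lower. Of 10623 genes 1462 were higher and 1649 lower at that setting. In dendritic cell-like cells Fosb was higher by 0.60 (adjusted p 0.0203), and 12.3% of all genes were higher. That call was lost with total UMIs alone (0.39, adjusted p 0.108), with no filter on low counts (adjusted p 0.0641), without the library block (adjusted p 0.300) and with a stricter filter on cells (adjusted p 0.0620). Under the first and second of these no gene was higher and 2 were lower. Jun was at -0.74 there (adjusted p 0.0506). In T or NK cell-like cells 4 genes were lower, against 6.94% of all genes: Atf3 at -1.62 (adjusted p 0.00749), Fos at -1.08 (adjusted p 0.0077), Jun at -0.94 (adjusted p 0.0238), and Egr2, which had no UMI. Junb at -0.06 and Jund at -0.14 did not pass in these cells.

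All 10 genes were lower in cycling-like cells, where 8.68% of all genes were lower. The differences ranged from -0.73 for Fosb to -1.58 for Egr1, and the largest adjusted p was 0.0499, for Atf3. Without the library block 6 of the 10 passed, against 4.37% of all genes. The cycling-like class joins clusters 11 (405 and 216 cells) and 17 (200 and 10 cells), which differed in balance. For each Jun UMI there were 1.56 and 1.03 UMIs of Fos in cluster 11 and 4.2 and 4.55 in cluster 17. Macrophage-like cells had 3.74 and 2.66, and microglia-like cells 1.35 and 0.924. What each cluster contributes to the differences of the class was not tested. All 10 were also lower in fibroblast or pericyte-like cells, against 23.2% of all genes. There the differences ranged from -0.66 for Fosb (adjusted p 0.00396) to -4.95 for Atf3 (SE 0.41, adjusted p 5.23e-08), and Junb was at -2.42 (adjusted p 3.26e-08). Under scaling to total UMIs alone Fosb did not pass in the fibroblast or pericyte-like class (adjusted p 0.0786).

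Microglia-like cells were not uniform. They fell into 7 clusters, drawn without the 10 genes but from other genes of the same cells, so that the p-values below say only how well the libraries agree. The summed level was 15696 and 19013 in cluster 3 (683 and 1428 cells), 16953 and 15466 in cluster 9 (726 and 199 cells) and 14504 and 17237 in cluster 1 (1590 and 857 cells). Clusters 7, 0 and 4 had 7862 and 6899, 7041 and 5815, and 6135 and 6333. Cluster 13 (188 and 277 cells) had 928 and 460. The first 3 clusters were therefore above free RNA (5885 and 9290) in both libraries, and cluster 13 was far below it. Leading genes of cluster 1 were the cytokine genes Tnf and Il1a with Cd83, those of cluster 3 Adamts1, Txnip, Klf2 and Btg2, and those of cluster 9 the heat shock genes Hspb1 and Dnajb1. Egr1 and, in cluster 3, Jun were themselves among the leading genes of clusters 3 and 9.

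Each cluster was tested against the mean of the other microglia-like clusters (edgeR, 10164 genes). Clusters 3 and 9 had all 10 genes higher, where 17.2% and 4.59% of all genes were higher, and cluster 1 had 9 higher, all but Egr2, against 7.45%. In cluster 3 the differences were 2.74 for Egr3 (adjusted p 1.28e-05), 2.19 for Egr2 (adjusted p 0.000171) and 2.12 for Egr1 (adjusted p 6.23e-06), and 1.51 for Jun. In cluster 1 Ier2 was higher by 1.88 (adjusted p 1.25e-08), Fos by 1.68 and Junb by 1.54. Since cluster 13 is so low, it weighs on these means. With cluster 13 left out of the mean, cluster 3 had 9 genes higher (all but Fosb; background 7.66%), cluster 9 had 8 (not Fos and Fosb; 1.11%) and cluster 1 had 7 (not Jun, Egr1 and Egr2; 4.09%). In cluster 3 Egr1 was then higher by 1.32 (adjusted p 0.00114) and Egr3 by 1.25 (adjusted p 0.000518).

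The 3 high clusters were compared gene by gene. Egr1 had 1743 and 1284 CPM in cluster 3, 1736 and 924 in cluster 9, and 1122 and 683 in cluster 1. Ier2 had 559 and 700.5 in cluster 3 and 696.5 and 954 in cluster 1. Jun had 2969 and 4050 in cluster 3 against 2043 and 2493 in cluster 1, while Fos was close in value in both, 3106 and 3493 against 3112 and 3481. A test between these clusters was not made.

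Cluster 0, led by P2ry12 and by the heat shock gene Hspa1b, separated Jun from Fos. Its Jun level was 1930 and 1955, above that of all microglia-like cells in library 1 and below it in library 2. Fos was 970 and 574, below the Fos level of all microglia-like cells in both libraries. Against the other clusters 5 genes were lower, namely Fos by -1.20 (adjusted p 0.000143), Ier2 by -1.19, Atf3 by -1.01, Junb by -0.85 and Fosb by -0.74, against 12.9% of all genes. With cluster 13 left out of the mean 8 were lower, against 9.69%, the exceptions being Jun at -0.24 (adjusted p 0.538) and Egr2 at -0.32 (adjusted p 0.397). For each Jun UMI there were 0.503 and 0.294 UMIs of Fos in cluster 0, compared with 1.52 and 1.40 in cluster 1, 1.05 and 0.863 in cluster 3 and 2.32 and 1.93 in cluster 4. Cluster 0 had the lowest ratio of these 4 clusters in both libraries.

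Cluster 4, led by Ch25h, Cst7 and Igf1, had the opposite balance. Its Fos level, 1591 and 1547, was below that of all microglia-like cells in both libraries. Against the mean of the other clusters, which includes cluster 13, Fos was higher by 0.52 (adjusted p 0.0255) and Fosb by 0.93 (adjusted p 0.00157), where 20.4% of all genes were higher. Jun, Jund and Egr1 were lower, by -0.65, -0.37 and -0.87, where 9.14% were lower. None of these passed without the library block. With cluster 13 left out, no gene was higher and 7 were lower (background 19.1%), with Fos at -0.11 (adjusted p 0.666), Egr1 at -1.75 (adjusted p 5.99e-05) and Jun at -1.38 (adjusted p 0.000127). Cluster 7, led by the interferon-induced genes Ifit2 and Ifit3, had none of the 10 called (1.83% of all genes in either direction). With cluster 13 left out Jund alone was lower there (-0.48, adjusted p 0.048), against 0.531% of all genes.

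In cluster 13 all 10 genes were lower than in the other clusters, where 15.3% of all genes were lower. Fos was at 160 and 69.7 CPM, a difference of -3.76 (SE 0.26, adjusted p 6.91e-10), and Junb at 207 and 152, a difference of -3.22 (adjusted p 6.23e-11). Egr1 had 15 and 3 UMIs, and Egr2 and Egr3 had none in either library. At the limit of 3 counts Egr3 was at least 4.02-fold and 7.03-fold lower than in all microglia-like cells. These cells had a median of 2173 UMIs, and mitochondrial and ribosomal protein genes took 28.4% and 29.6% of their UMIs. Of 12 microglia markers 10 counted as detected in them, all but P2ry12 and Cx3cr1. Their leading genes included Cox6a2, Cst7, Ccl5, Rps29 and mt-Nd4l, and no microglia marker was among the leading genes. By library the medians were 1871 and 2513 UMIs in cluster 13 and 1875 and 4777 in cluster 9. The part of depth in these values was not tested.

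**Figure D3:**
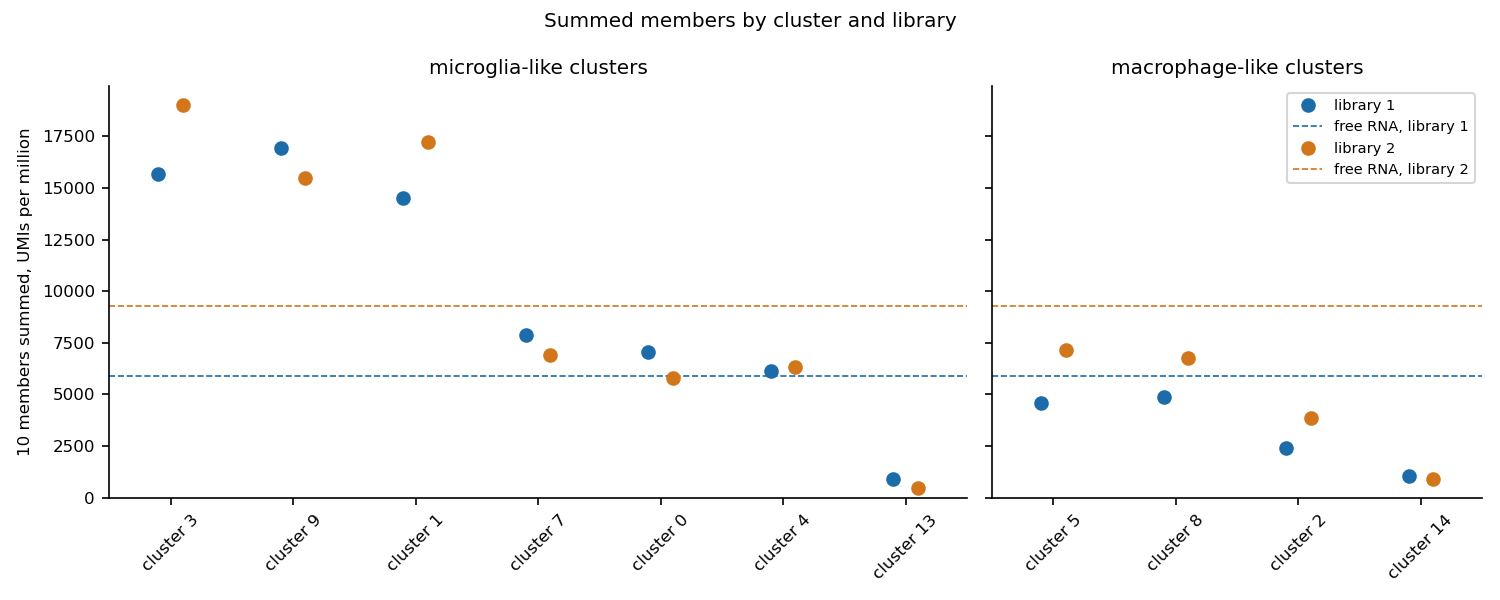
The plot shows the level of the 10 genes summed, as CPM (vertical axis, from 0), in each microglia-like and macrophage-like cluster, with 1 point for each library and dashed lines for free RNA. Clusters 3, 9 and 1 lie between 14504 and 19013, and cluster 13 lies at 928 and 460.

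Macrophage-like clusters also spread widely. Cluster 5 (Arg1 and Pf4) had a summed level of 4581 and 7130, cluster 8 (Cxcr4 and Apoe) 4885 and 6772, and cluster 2 (Gpnmb and Fabp4) 2418 and 3854. Cluster 14, led by Xist, Mrc1 and Marco, had 1070 and 920, with 242 cells in library 1 and only 17 in library 2. Only clusters 5 and 8 had enough cells in both libraries for a test. They differed in 1 of the 10 genes, Fosb, at 129 and 94.4 in cluster 5 against 252 and 168 in cluster 8 (-1.06, SE 0.25, adjusted p 0.00354), where 9.68% of all genes were lower in cluster 5. Without the library block this call was lost (-1.09, adjusted p 0.122). Egr1 was 24.7 and 30.8 in cluster 2, 95.9 and 92.8 in cluster 5 and 84.7 and 168 in cluster 8.

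The libraries differed in these genes, which has no replicate check. Summed over all cells, library 2 was 1.58 times library 1 (95% interval 1.58 to 1.59, counting error only). The ratio was 1.17 in microglia-like cells and 2.01 in macrophage-like cells. Within macrophage-like clusters it was 1.59 in cluster 2, 1.56 in cluster 5, 1.39 in cluster 8 and 0.860 in cluster 14, so that within each cluster it was smaller than in the class as a whole. Free RNA had a ratio of 1.58. Library, cell makeup and free RNA cannot be told apart as sources of this difference.

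In single cells, each was thinned to 1000 UMIs so that depth was equal, and the number of these 10 genes with at least 1 UMI was counted. Microglia-like cells had on average 4.37 and 3.96 of them, monocyte-like cells 3.71 and 3.55, and macrophage-like cells 2.23 and 3.17. Neutrophil-like cells had 4.47 and 4.18, and fibroblast or pericyte-like cells 1.76 and 1.63. At least 5 were found in 52.5% and 44.99% of microglia-like cells but in 8.17% and 21.5% of macrophage-like cells. The distribution in microglia-like cells was broad: 4.84% and 8.26% of them had none of the 10. In cluster 13 that share was 59.0% and 67.9%, whereas cells of cluster 3 had on average 5.75 and 5.50. The most found in a cell of these classes was 9, and thinning with another random seed gave 1 microglia-like cell of library 2 with all 10.

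The share of cells with a UMI followed the gene. After thinning, Fos was found in 69.0% (exact 95% binomial interval 67.8 to 70.1) and 54.8% (53.4 to 56.1) of microglia-like cells and in 59.2% (57.8 to 60.6) and 73.4% (69.6 to 77.1) of macrophage-like cells, so that its order reversed between libraries. Jun was found in 68.9% and 73.2% against 27.6% and 49.4%, and Egr1 in 43.5% and 33.9% against 5.78% and 10.4%. For both of these the microglia-like share was higher in each library. Without thinning the shares were 83.3% and 72.2% against 88.6% and 88.2% for Fos and 63.0% and 59.4% against 18.6% and 33.03% for Egr1, at median depths of 3540 and 5023 UMIs in microglia-like and 6585 and 8719 in macrophage-like cells. No class here is known to lack Fos, and in cluster 13 its thinned share was 10.6% and 6.50%. Egr3 was found in 3.09% and 1.92% of microglia-like cells and in 5 of 4652 and 0 of 557 macrophage-like cells, and without thinning in 18 and 5 of these.

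Detection of Fos or of Jun went with detection of more of the other genes within each class. Thinned microglia-like cells with a Fos UMI had on average 4.21 and 4.40 of the other 9 genes, and those without had 2.49 and 2.21. For Jun the averages were 4.14 and 3.78 with a UMI and 2.66 and 1.72 without. Macrophage-like cells with Fos had 1.98 and 2.76 of the others, and those without had 1.15 and 1.53. Not every gene behaved so. Monocyte-like cells with Egr2 (8 and 7 cells) had 3.625 and 3.29 of the others, and those without had 3.69 and 3.54. All of these are descriptions of cells that share a library and a class, and they carry no test.

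**Figure D4:**
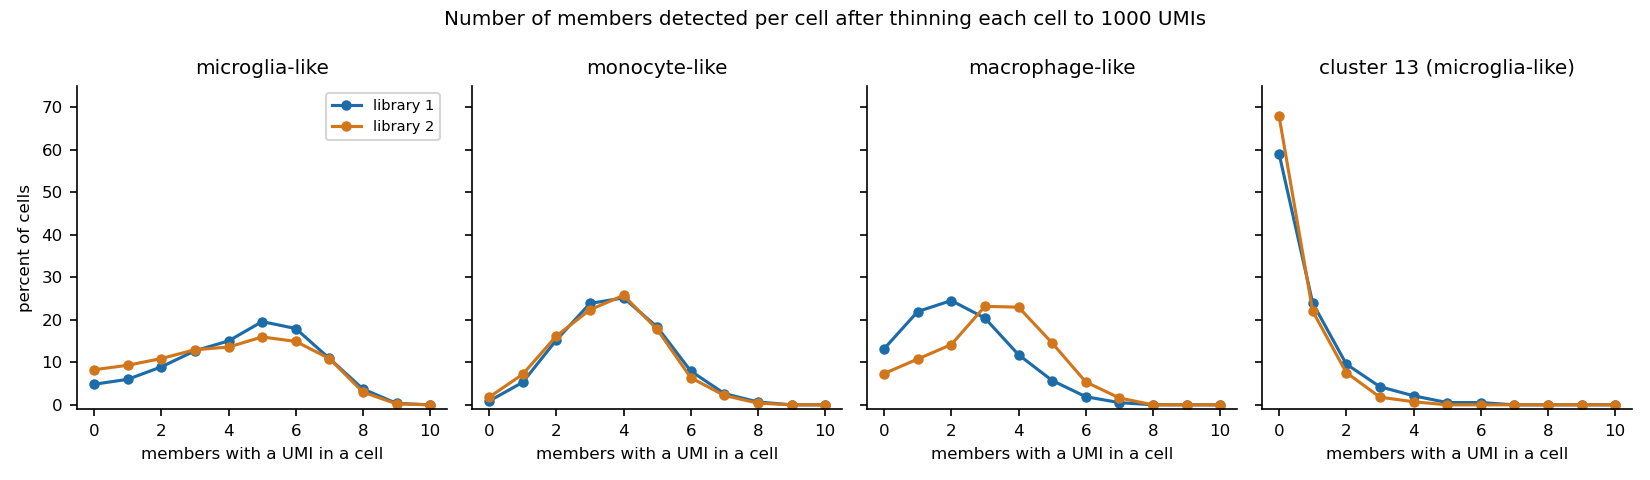
Each panel plots the percent of cells (vertical axis) that had a given number of the 10 genes with a UMI (horizontal axis) after thinning to 1000 UMIs, with 1 line for each library. Microglia-like cells spread from 0 to 9 genes, while 59.0% and 67.9% of cluster 13 had none.

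Genes outside the 10 with the most similar pattern were ranked by Pearson's r of log2(CPM + 10), centred in each library, over 16 clusters in both libraries (32 points, 4409 genes). For the summed level these were Klf6, an immediate early zinc finger factor, with r = 0.98, Ccnl1, a cyclin of RNA processing, with 0.97, Ppp1r15a, a stress-induced phosphatase subunit, with 0.95, Zfp36, which destabilises AU-rich messages, with 0.94, and its relative Zfp36l1 with 0.93. For single genes the most similar were Dusp1 for Fos (0.93), Gadd45b for Fosb (0.84), Ier5 for Jun (0.96), Klf6 for Junb (0.96), Clk1 for Jund (0.96), Rlim for Egr1 (0.95), Picalm for Egr2 (0.80), Herpud1 for Egr3 (0.87), Zfp36 for Atf3 (0.96) and Map3k8 for Ier2 (0.94). Among the 45 pairs of the 10 genes r ran from 0.51 for Fosb with Egr3 to 0.95 for Junb with Ier2, with a median of 0.76. The 16 clusters include cluster 13, which is low in all 10 genes, and r was not computed without it. The points share libraries and depth, and the values are descriptions.

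Related genes were followed as lists in macrophage-like against microglia-like cells, in the same edgeR fit and against the same 24% higher and 19.7% lower among all genes. Of 15 other AP-1 family genes 5 were higher and 5 lower, with a median of -0.13. Fosl1, a late Fos relative, was higher by 3.60 (SE 0.91, adjusted p 0.00439; 1.77 and 2.02 in the single libraries) and Batf3, a factor of dendritic cells, lower by -1.42 (adjusted p 1.37e-05). Of 27 other immediate early genes tested (Egr4 was not), 4 were higher and 14 lower, with a median of -0.63. Nr4a2, a nuclear receptor, was higher by 2.19 (adjusted p 3.34e-06) and Cyr61, a secreted matrix protein, lower by -5.22 (SE 1.17, adjusted p 0.00262), although the single libraries gave -2.01 and -1.39 for it. The call of Fosl1 was lost with doublets kept (2.28, adjusted p 0.0905), at Leiden resolution 0.4 (1.86, adjusted p 0.196) and with clusters weighted equally (2.19, adjusted p 1). With cells assigned by marker UMIs neither Nr4a2 (adjusted p 0.0715) nor Cyr61 (adjusted p 0.144) passed. The tally of the other immediate early genes turned to 11 higher and 10 lower with clusters weighted equally, where 27.2% of all genes were higher and 23.7% lower.

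Of 20 feedback inhibitors, which switch the cascade off, 3 were higher and 10 lower, with a median of -0.50. The Sprouty genes, inhibitors of receptor kinase signalling, moved apart: Spry2 was higher by 5.73 (adjusted p 1.19e-06) and Spry1 lower by -3.16 (adjusted p 1.78e-06). Of 20 upstream kinases and partners of serum response factor 3 were higher and 5 lower, with a median of 0.03. Mkl2, a coactivator of serum response factor, was higher by 1.44 (adjusted p 0.000126, and 0.0621 with cells assigned by marker UMIs), and Mef2c, a factor prominent in microglia, lower by -2.71 (adjusted p 7.96e-06). Of 12 heat shock genes 1 was higher, Hspd1 by 0.44 (adjusted p 0.0331), and 4 were lower, among them Hspb1 by -3.79 (adjusted p 1.44e-06) and Hspa1a by -1.66 (adjusted p 0.000125). Hspa1a and Hspa1b are near-identical and may share reads. The median of the heat shock list was 0.03, against 0.05 over all genes, and it summed to 4718 and 5393 CPM in microglia-like and 3394 and 4536 in macrophage-like cells. Handling of cells can also induce these genes, and its part in the levels was not tested. The call of Hspd1 was lost with total UMIs alone (0.08, adjusted p 0.713), without the library block (adjusted p 0.0581), with DESeq2 size factors, with no filter on low counts, with the stricter filter on cells, with cells assigned by marker UMIs, with clusters weighted equally and without cluster 14.

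Early cytokines and chemokines went both ways. Of 16 genes 6 were higher and 7 lower. Their median of 0.38 had no stable sign, being -0.77 without 1 library and 1.32 without the other, and the tally became 9 higher and 7 lower with clusters weighted equally and 8 and 7 with no filter on low counts. Of all genes 27.2% were higher and 23.7% lower with that weighting, and 2707 and 2295 of 17355 with no filter. Ccl7, a chemokine for monocytes, was higher by 4.65 (adjusted p 1.07e-05), and Csf1, the macrophage growth factor, lower by -3.02 (adjusted p 9.52e-06). In monocyte-like against macrophage-like cells, where 10.3% of all genes were higher and 13.2% lower, higher and lower counts were 4 and 0 for other AP-1 genes, 20 and 0 for other immediate early genes, 12 and 1 for feedback inhibitors, 7 and 1 for upstream genes, 5 and 2 for heat shock genes and 12 and 0 for early cytokines. The medians were 1.33 for other immediate early genes, 0.98 for feedback inhibitors and 1.41 for early cytokines. Nr4a2 was higher there as well, by 1.41 (adjusted p 0.000956), and so was Fosl1, by 3.01 (adjusted p 0.00753).

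**Figure D5:**
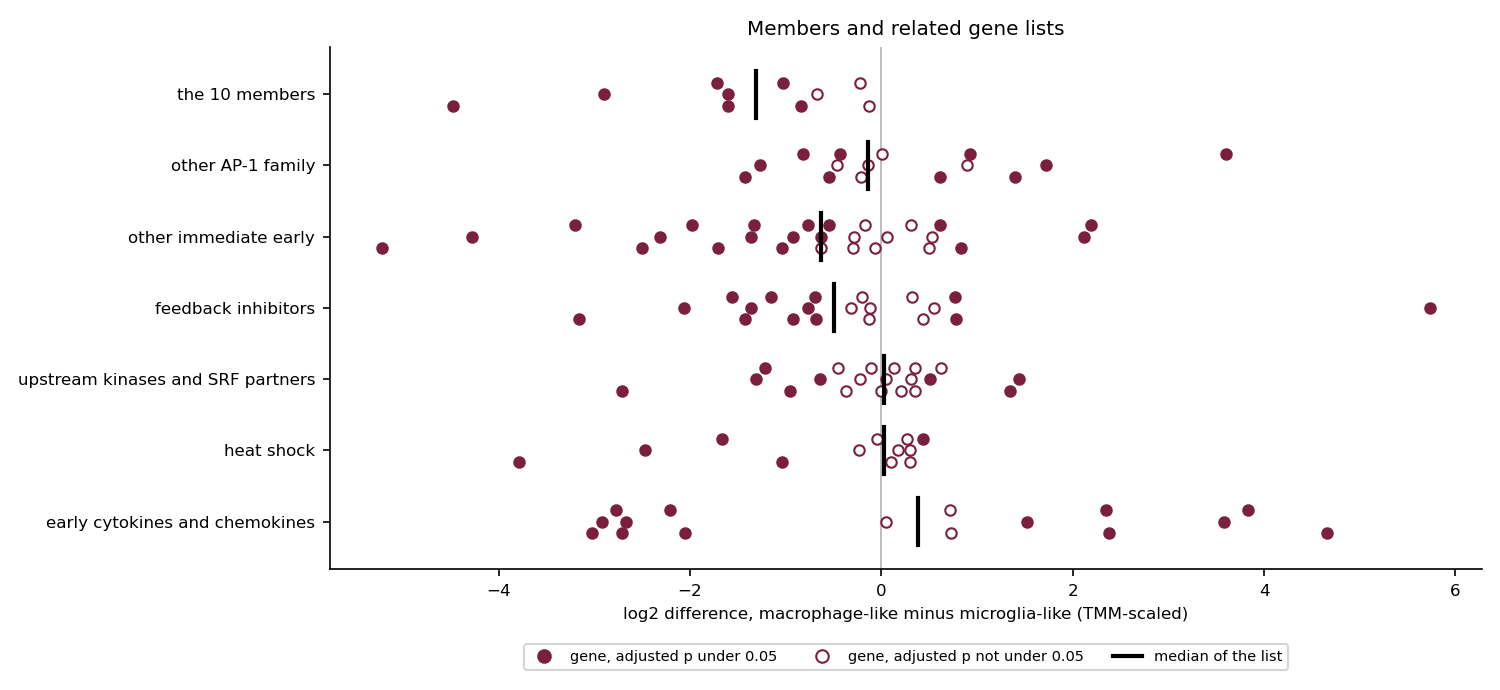
Each point is 1 gene at its log2 difference between macrophage-like and microglia-like cells (TMM-scaled, horizontal axis), filled where the adjusted p was under 0.05, in 1 row for each list, with a bar at the median. The 10 genes have a median of -1.31 and none lies to the right of 0, while early cytokines and chemokines lie on both sides.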

How the data were processed

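The values are whole-number UMI counts of each barcode, as the authors deposited them, made with STAR 2.5.1b and Cell Ranger 4.0.0 (Seurat 4 is also named), per the submitters' processing notes. Those notes name GRCm38, mm10 and GRCh38, and give no role for the last. Gene positions come from GENCODE vM21 (GRCm38), which holds 99.6% of the gene IDs. The 10 genes, the lists and the rule for named genes were chosen with earlier results of these data known. The rule names all 10 genes, the called gene with the largest rise and fall of each list, and the 5 genes with the most similar pattern (1 for each single gene); Hspa1a and Hspa1b were named after their values were seen.

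Cells (15050 and 7910) were barcodes with 1000 or more UMIs, 500 or more genes, and no more than 10% of UMIs from mitochondrial genes. Scrublet (Scanpy 1.11.5) marked 1426 doublets (9.48%) in library 1 and 0 in library 2, where the 501 top-scoring cells (6.33%) were removed instead. Cells were clustered on 2000 variable genes without the 10 genes and the lists (30 components, 15 neighbours, Leiden resolution 0.8, leidenalg 0.10.2) and named from markers. Of 26 clusters, 7 (306 and 70 cells) stayed unnamed. Counts were summed per library and class (at least 50 cells) or cluster (at least 100) and tested by edgeR 4.0.16 (R 4.3.3, TMM, filterByExpr, quasi-likelihood, library as a block), leaving 7 and 12 residual degrees of freedom. The classes of a library come from that library, so the block is a true pairing. Deviations of paired sums correlated across 12406 genes with r = 0.22 for macrophage-like and microglia-like cells, 0.14 for monocyte-like and macrophage-like cells and -0.01 for monocyte-like and microglia-like cells. The script was tested on simulated data. Alternatives were DESeq2 1.42.0, other scalings, filters, clusterings and weightings, and leaving out each library. Binomial intervals and limits for counts of 0 cover counting error only.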

Additional observations from a re-analysis of the deposited data

Results flagged for a closer look

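Barcodes that the comparisons did not use also held UMIs of the 10 genes. Barcodes with over 10% mitochondrial UMIs (87 and 49) had a summed level of 4597 and 10101 CPM, and those with at least 500 but under 1000 UMIs (1396 and 348) had 7773 and 5701. Free RNA had 5885 and 9290. The value of the barcodes rich in mitochondrial UMIs was thus below free RNA in library 1, and that of the barcodes with few UMIs was below it in library 2. All kept cells had 6370 and 10078. There is no control sample, and none of these differences was tested.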

How the results depend on the processing

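Depth limits the rarest genes: Egr2 and Egr3 rest on 142 and 48 and on 22 and 11 UMIs in macrophage-like cells. Each class has 2 libraries, so leaving out 1 gives values without a test. Counts below are of genes called in either direction. Results that answer a comparison were labelled by size under each alternative. In 208 cases the count called stayed within 1.5 times the main count, or a median, mean or ratio stayed within a set spread. In 46 it moved further, which can still point the same way, and in 12 the direction reversed. For single genes, 1167 cases were labelled unchanged, including a change of sign where neither value passed. The call was lost in 55 and gained in 35, while 10 moved and 5 reversed. The causes were not tested.

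Without the replicate block (no pairing of classes by library) the count was 0 for monocyte-like and 0 for dendritic cell-like against microglia-like cells, 6 for cycling-like cells, 0 for cluster 4 and 0 for clusters 5 and 8, and 5 for monocyte-like against macrophage-like cells. With cells assigned by marker UMIs 3 of the 10 genes passed in macrophage-like against microglia-like cells, and of the lists 4 other AP-1, 7 other immediate early, 3 feedback, 4 upstream, 1 heat shock and 7 cytokine genes. Of all genes 7.71% were higher and 8.28% lower at that setting. For monocyte-like against microglia-like cells the count was 5 with total UMIs alone, 0 with the stricter cell filter, 5 with doublets kept, 7 at Leiden resolution 0.4, 5 at 1.2 and 0 without shared barcodes. All of these calls were lower. Of all genes 24.9% were lower with total UMIs alone, 1604 of 10684 with the stricter filter and 2232 of 10845 with doublets kept. At resolution 0.4 there were 2707 of 11389 lower, at 1.2 there were 1921 of 10623, and without shared barcodes 1519 of 11012. For neutrophil-like cells it was 1 (higher) with no filter on low counts, where 665 of 17355 genes were higher and 139 lower. At resolution 1.2 it was 3 (2 lower), where 1462 of 10623 genes were higher and 1649 lower. For dendritic cell-like cells it was 2 with DESeq2 size factors, 2 (both lower) with total UMIs alone, 3 (2 lower) with DESeq2, 2 (both lower) with no filter on low counts, 0 with the stricter filter, 2 with doublets kept, 3 (2 lower) at resolution 0.4 and 2 without cluster 13; at resolution 1.2 this class did not form. Without cluster 13 cluster 0 had 8 and cluster 7 had 1, all lower, against 9.69% and 0.531% of all genes. With no filter on low counts cluster 7 had 1 and clusters 5 and 8 had 2, and the share over all genes was not computed at that setting.

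With clusters weighted equally, a weighting chosen after seeing the data like those with total UMIs alone, without shared barcodes and without cluster 13, 21 other immediate early genes (11 higher), 13 feedback inhibitors (7 higher), 14 upstream genes and 16 cytokine genes (9 higher) were called, and without cluster 13 in it 14 and 16 of the last 2 lists. Of all genes 27.2% were higher and 23.7% lower with that weighting, and 28.2% and 30.4% without cluster 13 in it. The macrophage-like side of that weighting held clusters 5 and 8 alone. There Fos gave 0.88 and, without cluster 13, 0.35, Fosb 0.98, Egr2 0.83 and Hspd1 -0.021. The cytokine list had 15 (8 higher) with no filter on low counts, where 2707 of 17355 genes were higher and 2295 lower. The heat shock list had 8 (7 lower) at resolution 0.4, where 2395 of 11389 genes were higher and 2613 lower.

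Scaling to total UMIs alone moved the share of called genes that were higher from 48.7% to 31.3% for monocyte-like and from 59.4% to 35.8% for dendritic cell-like against microglia-like cells, from 57.6% to 70.5% for fibroblast or pericyte-like cells, and from 43.7% to 58.3% for monocyte-like against macrophage-like cells.

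The mean number of the 10 genes in a cell, over both libraries, without thinning was 5.99 (microglia-like), 5.50 (macrophage-like) and 5.77 (monocyte-like), and 5.25, 3.68 and 4.91 when thinned to 2000 UMIs. The library ratio in microglia-like cells was 1.15 without mitochondrial and ribosomal protein genes.

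Leaving out 1 library gave medians of the 10 differences of -1.56 to -0.94 for macrophage-like and -0.32 to -0.20 for monocyte-like against microglia-like cells, and 0.49 to 1.49 for monocyte-like against macrophage-like cells. Against microglia-like cells they were 0.02 to 0.27 for neutrophil-like, -0.21 to -0.082 for dendritic cell-like, -1.26 to -0.54 for T or NK cell-like, -1.34 to -1.29 for cycling-like and -2.03 to -1.89 for fibroblast or pericyte-like cells. Medians were -0.73 to -0.31 in cluster 0, 1.32 to 1.89 in cluster 1, 1.08 to 1.64 in cluster 3, -0.10 to -0.052 in cluster 4 (reversed), 0.24 to 0.27 in cluster 7, 1.31 to 1.62 in cluster 9, -4.42 to -3.36 in cluster 13, and -0.26 to -0.03 in cluster 5 against 8. For the lists they were -0.34 to 0.15 (other AP-1), -1.04 to -0.24 (other immediate early), -0.76 to -0.31 (feedback), 0.017 to 0.026 (upstream), -0.054 to 0.045 (heat shock, reversed without library 2) and -0.77 to 1.32 (cytokines).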
